A study of Mus musculus with 26 samples.

Results

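Microglia from mice that lacked Grn were compared between animals heterozygous for Tmem106b and animals with intact Tmem106b. The 3 libraries labelled Tmem106b HET and Grn KO were set against the 4 labelled Tmem106b WT and Grn KO. These 7 libraries were chosen by the genotype label alone, out of 26 libraries in the series. The question the genotypes pose is whether lower Tmem106b modifies the microglial state that the loss of progranulin brings about. RNA was sequenced from low input after SMART-Seq v4 amplification, per the labels' protocols, and each value is a count of reads in exons. The sources used here did not give age, the way the microglia were isolated, the design of the alleles or the number of animals per library. Nothing says that each library came from its own animal, so every p-value below measures only the spread between these libraries.

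The product of Tmem106b sits in the membrane of lysosomes and late endosomes and bears on their size, acidity and movement. Progranulin, the product of Grn, is secreted, taken into lysosomes and split there into granulins. Microglia without progranulin are known to take on a disease-associated state, in which the genes of lipid handling, phagocytosis and lysosomes are raised and the genes of the resting, homeostatic state are reduced. In people, TMEM106B variants are known to modify the risk of frontotemporal dementia caused by GRN mutations.

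The Tmem106b HET Grn KO group held 2 female libraries labelled Entire (replicates 1 and 2) and 1 male library labelled Hemi (replicate 3). The Tmem106b WT Grn KO group held 1 male Entire library (replicate 1), 1 female Hemi library (replicate 2) and 2 female Entire libraries (replicates 3 and 4). The labels do not explain the 2 dissections. Depth was 47.5 to 56.7 M counts in the Tmem106b HET libraries and 46.3 to 63.7 M in the Tmem106b WT libraries. For the Grn background, 4 libraries were Tmem106b HET Grn WT and 3 were Tmem106b WT Grn WT. In Tmem106b HET Grn WT, replicates 1 and 2 were female Entire and replicates 3 and 4 male Hemi. In Tmem106b WT Grn WT, replicates 1 and 3 were male Entire and replicate 2 female Hemi. Also used below were 3 Tmem106b HET Grn HET, 5 Tmem106b WT Grn HET and 4 Tmem106b KO Grn WT libraries.

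The Tmem106b HET Grn KO libraries were not alike. The summed level of 10 microglia markers was 31178, 21284 and 8814 CPM (counts scaled to a common library total) in Tmem106b HET replicates 1 to 3, against 30618, 24005, 30898 and 28174 CPM in Tmem106b WT replicates 1 to 4. The summed level of 12 neuron markers was 557, 2316 and 7299 CPM in the Tmem106b HET libraries, against 896, 575, 507 and 818 CPM in the Tmem106b WT libraries. Tmem106b HET replicate 3 was thus lowest in microglia markers and highest in neuron markers of the 7, and replicate 2 lay next to it on both. Outside the 2 groups, 1 other male Hemi library, Tmem106b KO Grn WT replicate 2, had similar sums, of 9009 CPM for microglia and 8072 CPM for neurons. The remaining male Hemi libraries did not. Tmem106b HET Grn WT replicates 3 and 4 had 35192 and 45854 CPM for microglia and 721 and 1463 CPM for neurons. Tmem106b WT Grn HET replicate 5 had 33894 and 1264 CPM. The correlation of log2 CPM between libraries of the same group was 0.868 to 0.966 among the 3 Tmem106b HET libraries and 0.968 to 0.991 among the 4 Tmem106b WT libraries, across genes, which are not independent. The part that neuronal transcripts play in the results below was not tested, so the medians of the gene lists are given with all libraries, without Tmem106b HET replicate 3, and per microglia marker count.

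**Figure D1:**
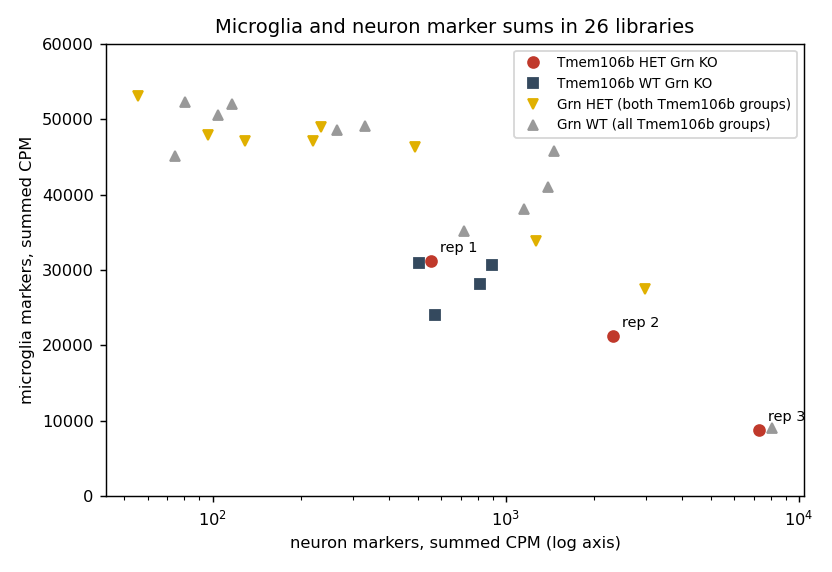
Summed CPM of 10 microglia markers (vertical axis) against summed CPM of 12 neuron markers (horizontal log axis) in the 26 libraries, with 1 point per library. Tmem106b HET Grn KO replicates 2 and 3, at 2316 and 7299 neuron marker CPM, lie to the right of and below the 4 Tmem106b WT Grn KO libraries, which span 507 to 896 CPM.

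The targeted genes were examined first. Tmem106b (ENSMUSG00000029571, GRCm38 chromosome 6, 13069759 to 13089269, plus strand) had 51.6, 55.2 and 63.3 CPM in the Tmem106b HET libraries, against 102, 72.1, 60.3 and 66 CPM in the Tmem106b WT libraries, where CPM of a gene is here and below relative to the TMM-scaled total. The groups overlapped at 1 library of each, and the mean was 56.7 ± 5.98 CPM in Tmem106b HET and 75 ± 18.3 CPM in Tmem106b WT (SD, n = 3 and 4), or 75.6% of the Tmem106b WT level. The fitted log2 fold change was -0.40 (SE 0.22, 95% interval -0.86 to 0.06), with an edgeR quasi-likelihood p of 0.082 and an adjusted p of 0.92. A two-sided exact permutation test on the CPM gave p = 0.11, and 0.34 after adjustment over the 3 Grn backgrounds, where 35 regroupings allow no p under 0.057. Per microglia marker count the difference was positive, with 43.2 ± 39.5 in Tmem106b HET and 24.5 ± 7 in Tmem106b WT per 10000 marker counts (exact permutation p = 0.69), and Tmem106b HET replicate 3 alone stood at 88.2. That scaling moved nearly all genes: the median log2 fold change over all genes was 0.74 in it, beside -0.03 with TMM, and 17581 of the 21371 genes were positive. A positive value per microglia marker count therefore sets no gene apart, and Tmem106b, at 0.41, lay below the median of all genes there. With Grn intact, other libraries gave 60.2 ± 20.9 CPM in Tmem106b HET and 77.6 ± 10.1 CPM in Tmem106b WT, or 77.5%, and with Grn HET they gave 62.6 ± 5.59 and 70.4 ± 11.7 CPM, or 89% (exact permutation p = 0.29 and 0.39). The 4 Tmem106b KO libraries kept 28.2 ± 5.13 CPM, and the stretch of the gene that the allele removes was not given.

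**Figure D2:**
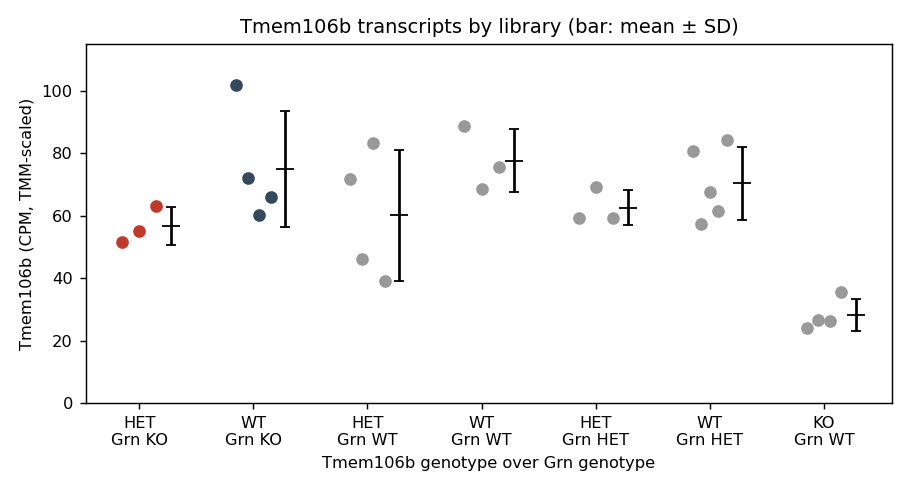
Tmem106b CPM by library in the 7 genotype groups, with each group's mean and SD as a bar beside its points. The Tmem106b HET Grn KO libraries span 51.6 to 63.3 CPM and the Tmem106b WT Grn KO libraries 60.3 to 102 CPM, so the 2 ranges overlap; per microglia marker count the difference is positive, as it is for most genes.

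Grn itself had 0.0206, 1.64 and 8.04 CPM in the Tmem106b HET Grn KO libraries, against 0.138, 16, 3.22 and 0 CPM in the Tmem106b WT Grn KO libraries, and averaged 2980 and 3345 CPM in the Tmem106b HET and WT groups with Grn intact. The 0 stands for no count, which allows up to 0.0471 CPM at that library's depth. All 7 libraries therefore bore out their Grn KO label, and in each group the highest residual was in the Hemi library. The paralogs Tmem106a (log2 fold change -0.40, SE 0.29) and Tmem106c (-0.33, SE 0.20) did not pass the test either, and both were positive per microglia marker count, at 0.28 and 0.36, below the 0.74 of all genes.

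Across the transcriptome no gene passed the test. Of 21371 genes tested with edgeR, 0 had an adjusted p under 0.05 (0%), and the lowest adjusted p was 0.92. Without adjustment, 811 genes (3.79%) had a p under 0.05, of which 286 (1.34%) were higher and 525 (2.46%) lower in Tmem106b HET. Limma-voom also called 0 genes (1757 at an unadjusted p under 0.05), whereas DESeq2 called 93 (1335 unadjusted). All of the 93 lay under 5 CPM in the higher group, 88 had no count in any library of the other group, and none belonged to a gene list used here. The unadjusted count was 205 without Tmem106b HET replicate 3, 245 without Tmem106b WT replicate 2 and 2089 without Tmem106b HET replicate 1, and no gene passed in any of these fits. Every Tmem106b HET library lay above every Tmem106b WT library for 629 genes (2.94%) and below for 680 (3.18%). The median SE of a log2 fold change was 0.65 over all genes and 0.37 over a panel of 39 Grn-response and microglial genes.

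The Grn-null state was plain in both Tmem106b genotypes. Gpnmb, a lysosomal and surface glycoprotein of lipid-laden phagocytes, had 13189, 9117 and 2387 CPM in the Tmem106b HET Grn KO libraries and 13934, 8314, 9669 and 12937 CPM in the Tmem106b WT Grn KO libraries, against means of 11.2 and 4.93 CPM in the Tmem106b HET and WT groups with Grn intact. Its 2 Grn KO groups overlapped except for Tmem106b HET replicate 3, and the log2 fold change between them was -0.62 (SE 0.89). It was -0.45 without that replicate, 0.19 among Entire libraries, 0.23 among female libraries and 0.11 per microglia marker count. Lgals3, a galectin that binds damaged lysosomes, had 1008, 600 and 257 CPM in Tmem106b HET and 815, 647, 859 and 977 CPM in Tmem106b WT (log2 -0.46, SE 0.38, and 0.19 per microglia marker count). Apoe, the main lipid carrier of the brain, had 81110, 42354 and 16180 CPM in Tmem106b HET and 49499, 54899, 78183 and 83070 CPM in Tmem106b WT (log2 -0.57, SE 0.42, and 0.02 per microglia marker count). In all 3 genes, Tmem106b HET replicate 1 lay at or near the top of the Tmem106b WT libraries and replicate 3 lay far below them. Bulk RNA cannot tell fewer microglia in a sample from less of these transcripts in each microglial cell.

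Of the 39 panel genes, all were tested and none passed (edgeR, lowest adjusted p 0.92; DESeq2 and limma-voom none). The fitted difference was negative for 38 and positive for Atp6v1a alone, where 51.8% of all genes were negative. Of the 39 intervals at the 95% level 35 held 0, and the others were those of P2ry12, Sall1, Eng and Siglece, all lower. Over all genes 2.46% were lower at an unadjusted edgeR p under 0.05. But per microglia marker count the difference was positive for 29 and negative for 10, where 17581 of 21371 genes were positive. Without Tmem106b HET replicate 3 it was positive for 4 and negative for 35, where 10630 of 21371 genes were negative. Tmem106b HET replicate 3 was the lowest of the 7 libraries for 37 panel genes, while replicate 1 was the highest of the 7 for 17. The Tmem106b HET libraries thus lay on both sides of the Tmem106b WT libraries for many panel genes, as the plot of panel genes by library shows.

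**Figure D3:**
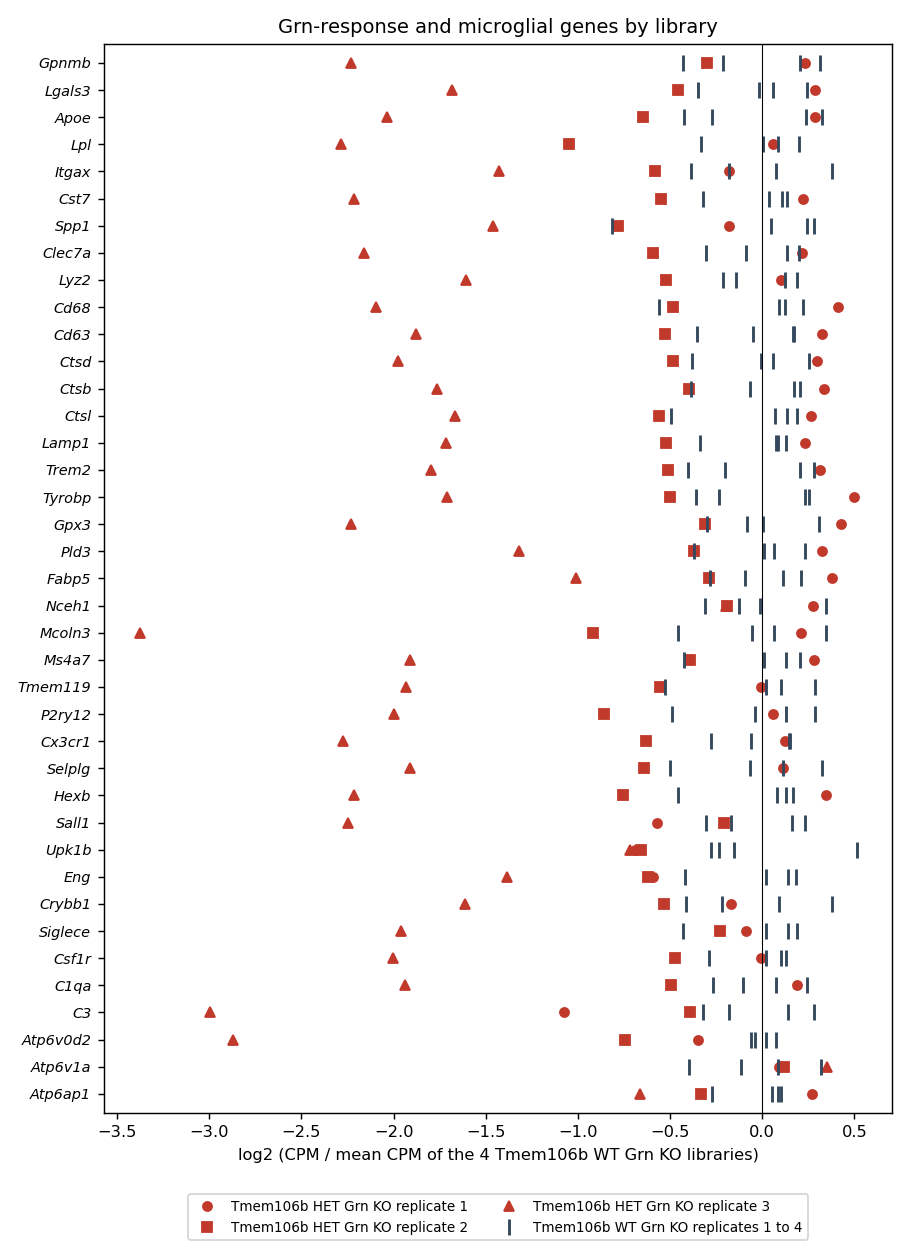
For each of the 39 panel genes, log2 of the CPM in each library over the mean CPM of the 4 Tmem106b WT Grn KO libraries. Tmem106b HET replicate 3 (triangles) is lowest of the 7 libraries in 37 genes and replicate 1 (circles) is highest in 17; per microglia marker count, 29 of the 39 fitted differences are positive, as are 17581 of all 21371.

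Disease-associated microglia genes are described first among the lists. Of 31 listed genes 30 were tested, and Lilrb4a was not. None of the 30 passed, and none had an unadjusted p under 0.05, against 3.79% of all genes. All 30 fitted differences were negative (median log2 -0.49, lowest -0.86, highest -0.19), against a median of -0.03 over all genes tested, but per microglia marker count 25 were positive (median 0.14). That scaling moved the median of all genes to 0.74, so the list lay below all genes in both scalings. Without Tmem106b HET replicate 3 the median was -0.22 beside 0.00 for all genes, and without replicate 1 it was -0.85. Within the Entire libraries it was -0.16 and within the female libraries -0.14. Here and elsewhere both of these sets also leave out Tmem106b HET replicate 3, the only male and only Hemi library of its group.

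The single libraries differed more than the medians show. In Tmem106b HET replicate 1, 18 of the 30 genes lay above the range of the 4 Tmem106b WT libraries, 12 within it and 0 below, against 18.9% of all genes above and 18.9% below. In replicate 2, 0 lay above, 6 within and 24 below, against 26.6% of all genes above and 19.3% below. In replicate 3 all 30 lay below, against 34.1% of all genes above and 39.1% below. Per microglia marker count the genes above the range were 8 in replicate 1, 12 in replicate 2 and 14 in replicate 3, against 8.16%, 59.4% and 70.8% of all genes. Those below it were then 0, 1 and 1, against 30.7%, 2.92% and 13.2% of all genes. The sum of the list over the sum of the microglia markers was 6.04, 6.13 and 6.51 in the Tmem106b HET Grn KO libraries, against 4.92, 6.04, 5.48 and 6.49 in the Tmem106b WT Grn KO libraries. These ratios averaged 6.23 ± 0.249 and 5.73 ± 0.678 (SD, n = 3 and 4) and overlapped. With Grn intact the ratio was 0.895 ± 0.0665 in Tmem106b HET and 0.918 ± 0.072 in Tmem106b WT (SD, n = 4 and 3). Relative to microglia markers, which themselves include homeostatic genes, the disease-associated sum was therefore about as high in Tmem106b HET replicate 3 as in the other Grn KO libraries.

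Single members followed the same pattern of libraries. Lpl, which frees fatty acids from lipoproteins, had 252, 117 and 49.7 CPM in Tmem106b HET against 192, 257, 278 and 243 CPM in Tmem106b WT (log2 -0.86, SE 0.50, and -0.26 per microglia marker count). Spp1, or osteopontin, had 1515, 999 and 624 CPM in Tmem106b HET against 974, 2086, 2031 and 1772 CPM in Tmem106b WT (log2 -0.67, SE 0.46, and 0.10 per microglia marker count). Gpx3, a secreted peroxidase with means of 25.5 and 34 CPM in the Tmem106b HET and WT groups with Grn intact, had 1853, 1110 and 294 CPM in Tmem106b HET Grn KO against 1302, 1121, 1384 and 1706 CPM in Tmem106b WT Grn KO (log2 -0.41, SE 0.54). Its difference was 0.08 without Tmem106b HET replicate 3 and 0.09 per microglia marker count. Trem2, the receptor through which microglia enter this state, gave -0.48 (SE 0.34), and its adaptor Tyrobp -0.37 (SE 0.37), with 0.19 and 0.28 per microglia marker count.

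Lysosomal genes, where progranulin and Tmem106b both act, showed the same order of libraries. Of 50 lysosomal enzymes and membrane proteins tested, none passed and 2 had an unadjusted p under 0.05, both lower (Ctsc and Lipa), against 2.46% of all genes. Fitted differences were negative for 47 (median log2 -0.51, -0.23 without Tmem106b HET replicate 3 and -0.86 without replicate 1), and positive for 43 per microglia marker count (median 0.14, beside 0.74 for all genes). The aspartic protease Ctsd had 46197, 26891 and 9535 CPM in Tmem106b HET against 37460, 28886, 39154 and 44820 CPM in Tmem106b WT (log2 -0.54, SE 0.35). Per 10000 microglia marker counts it stood at 13097 ± 353 in Tmem106b HET and 12027 ± 1175 in Tmem106b WT (SD, n = 3 and 4; log2 0.12). Ctsc, the protease that activates granule serine proteases, had 1089, 591 and 232 CPM in Tmem106b HET against 1072, 613, 1279 and 1157 CPM in Tmem106b WT (log2 -0.73, SE 0.32, edgeR adjusted p = 0.92). Lamp1, an abundant protein of the lysosomal membrane, had 4046, 2395 and 1049 CPM in Tmem106b HET against 3621, 2728, 3659 and 3761 CPM in Tmem106b WT (log2 -0.51, SE 0.28, and 0.14 per microglia marker count).

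Subunits of the vacuolar ATPase, which pumps protons into lysosomes and to which Tmem106b is known to bind through Atp6ap1, had fitted differences mostly on the positive side. Of 20 subunits tested none passed and none had an unadjusted p under 0.05. Fitted differences were positive for 14 (median log2 0.13, and 0.15 without Tmem106b HET replicate 3), and for 19 per microglia marker count (median 0.86). Over all genes the median was -0.03, 0.00 without that replicate and 0.74 per microglia marker count, so the subunits lay close to all genes in each. Atp6v1a, the catalytic subunit, had 389, 396 and 466 CPM in Tmem106b HET against 456, 277, 337 and 388 CPM in Tmem106b WT (log2 0.10, SE 0.29). Its sign turned without Tmem106b WT replicate 2, to -0.16, and with marker sums as covariates, to -0.11. Atp6v1d gave 223, 238 and 426 CPM in Tmem106b HET against 212, 148, 202 and 219 CPM in Tmem106b WT, with no overlap (log2 0.43, SE 0.26). Atp6v0d2, the subunit of osteoclasts and phagocytes, had 68.4, 52 and 11.9 CPM in Tmem106b HET against 84.8, 91.6, 88.4 and 83.3 CPM in Tmem106b WT, again with no overlap but in the other direction (log2 -1.13, SE 1.41). With Grn intact it averaged 0.319 CPM in Tmem106b HET and had no count in Tmem106b WT, which allows up to 0.0243 CPM over that group. Atp6ap1 had 1330, 874 and 695 CPM in Tmem106b HET against 1168, 913, 1145 and 1181 CPM in Tmem106b WT (log2 -0.18, SE 0.17, and 0.52 per microglia marker count). The summed subunits were 5211, 6055 and 8729 CPM in Tmem106b HET against 5525, 4782, 5049 and 5113 CPM in Tmem106b WT, and were highest in the 2 libraries with the highest neuron marker sums; the part of neuronal transcripts in this was not tested. With neuron, oligodendrocyte and choroid plexus marker sums as covariates the median of the subunits was -0.01.

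Among 27 genes that encode known partners and neighbours of progranulin and Tmem106b in lysosomal traffic, none passed, and the median was -0.32 (-0.12 without Tmem106b HET replicate 3 and 0.41 per microglia marker count). Only 1, the mannose 6-phosphate receptor M6pr, had an unadjusted p under 0.05 (log2 -0.47, SE 0.20, and 0.22 per microglia marker count). Over all genes 2.46% were lower at such a p, and without Tmem106b HET replicate 3 none of the 27 was. Sort1, the receptor that delivers progranulin to lysosomes, had 121, 153 and 62.5 CPM in Tmem106b HET against 189, 260, 125 and 138 CPM in Tmem106b WT (log2 -0.72, SE 0.35, and 0.10 per microglia marker count). Psap, whose product prosaposin carries progranulin by another route, had 6857, 5231 and 2523 CPM in Tmem106b HET against 6469, 6109, 5690 and 7004 CPM in Tmem106b WT (log2 -0.42, SE 0.26, and 0.30 per microglia marker count). Autophagy and TFEB family genes lay closer to all genes, with a median of -0.10 over 29 tested (-0.16 without Tmem106b HET replicate 3 and 0.62 per microglia marker count), and none passed. Without that replicate none had an unadjusted p under 0.05. With all libraries 2 did, both lower, against 2.46% of all genes. Those were the kinase Ulk2 (log2 -0.80, SE 0.35) and the transcription factor Tfe3, which had 153, 137 and 49.4 CPM in Tmem106b HET against 161, 171, 161 and 172 CPM in Tmem106b WT (log2 -0.65, SE 0.30, and 0.12 per microglia marker count).

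Homeostatic microglia genes held more of the small p-values. Of 25 tested none passed, and 7 had an unadjusted p under 0.05, all lower, against 2.46% of all genes. All 25 fitted differences were negative (median log2 -0.65, highest -0.48). They were negative also without Tmem106b HET replicate 3 (median -0.43, beside 0.00 for all genes). In that fit 1 gene of the list had an unadjusted p under 0.05, and over all 21371 genes 48 were lower at such a p. Per microglia marker count, however, 16 of the 25 were positive (median 0.05). Of its genes 8 are among the 10 microglia markers used for that scaling, so its position there is set in part by the scaling itself. Tmem119, a surface protein of resident microglia, had 2445, 1671 and 642 CPM in Tmem106b HET against 2490, 1700, 2987 and 2633 CPM in Tmem106b WT (log2 -0.67, SE 0.34, and 0.03 per microglia marker count). Sall1, the transcription factor that maintains microglial identity, had 84.8, 109 and 26.5 CPM in Tmem106b HET against 148, 141, 112 and 102 CPM in Tmem106b WT (log2 -0.92, SE 0.44, edgeR adjusted p = 0.92, and -0.13 per microglia marker count). Mertk, a receptor for the uptake of dying cells, had 371, 288 and 110 CPM in Tmem106b HET against 385, 377, 416 and 385 CPM in Tmem106b WT, with no overlap (log2 -0.70, SE 0.31, edgeR adjusted p = 0.92, and 0.05 per microglia marker count). Upk1b, a tetraspanin of homeostatic microglia, was nearly equal in the Tmem106b HET libraries, with 16.4, 16.8 and 16.1 CPM in Tmem106b HET against 21.9, 22.5, 37.8 and 23.8 CPM in Tmem106b WT and no overlap (log2 -0.57, SE 0.35). It was -0.90 without Tmem106b HET replicate 3 but 0.35 per microglia marker count.

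The TGF-beta pathway, the signal that keeps microglia in their homeostatic state, included 24 tested genes, of which none passed. An unadjusted p under 0.05 was found for 7, all lower, against 2.46% of all genes. In 5 of the 24 every Tmem106b HET library lay below every Tmem106b WT library, against 3.18% of all genes, and per microglia marker count in 0, against 0.711% of all genes below and 4.04% above. The median log2 fold change was -0.66, but -0.34 without Tmem106b HET replicate 3, where 0 of the 24 had an unadjusted p under 0.05, -0.13 without Tmem106b WT replicate 2, -0.07 among Entire libraries and 0.15 per microglia marker count. The ligand Tgfb1 had 51.6, 55.2 and 10.8 CPM in Tmem106b HET against 71.5, 67.2, 57.8 and 79 CPM in Tmem106b WT (log2 -0.96, SE 0.40, edgeR adjusted p = 0.92, and -0.25 per microglia marker count). The receptor Tgfbr2 had 500, 406 and 120 CPM in Tmem106b HET against 701, 544, 529 and 525 CPM in Tmem106b WT (log2 -0.87, SE 0.40). The co-receptor Eng had 15.7, 15.4 and 9.07 CPM in Tmem106b HET against 24, 17.7, 26.1 and 26.9 CPM in Tmem106b WT (log2 -0.80, SE 0.38, and 0.06 per microglia marker count). Itgav, the integrin chain that helps to release latent TGF-beta, had 63, 53.7 and 22.8 CPM in Tmem106b HET against 96.9, 119, 69.1 and 65 CPM in Tmem106b WT (log2 -1.02, SE 0.39), and the feedback repressor Skil was the fifth gene without overlap (log2 -0.83, SE 0.33). In these genes Tmem106b HET replicates 1 and 2 also lay under the lowest Tmem106b WT library, by less than replicate 3 did.

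Lipid efflux and storage genes gave 0 passed and 4 at an unadjusted p under 0.05 of 24 tested, all lower, against 2.46% of all genes (median log2 -0.47, and 0.29 per microglia marker count). Without Tmem106b HET replicate 3 none of the 24 had an unadjusted p under 0.05, against 48 genes lower in all, and the median was -0.22. The smallest p was that of Soat1, which esterifies cholesterol for storage, with 299, 190 and 63.5 CPM in Tmem106b HET against 330, 215, 284 and 293 CPM in Tmem106b WT (log2 -0.70, SE 0.27, edgeR adjusted p = 0.92, and -0.03 per microglia marker count). The sterol exporter Abcg1 gave -0.66 (SE 0.28) and -0.00 per microglia marker count. Cholesterol synthesis genes lay on the other side, with 15 of 22 fitted differences positive, but none passed and none had an unadjusted p under 0.05. Their median was 0.16, 0.31 without Tmem106b HET replicate 3 and 0.87 per microglia marker count, where that of all genes was 0.74. It was 0.00 without Tmem106b WT replicate 2 and 0.06 with marker sums as covariates. The summed list was 671, 856 and 1151 CPM in Tmem106b HET against 712, 806, 581 and 623 CPM in Tmem106b WT. Tmem106b HET replicates 2 and 3, the highest, also had the highest neuron marker sums, and the part of neuronal transcripts was not tested. Fdft1, the squalene synthase, had 12.5, 16.2 and 32.6 CPM in Tmem106b HET against 9.61, 12.2, 8.12 and 9.52 CPM in Tmem106b WT, with no overlap (log2 0.76, SE 0.42).

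Oxidative phosphorylation genes, which encode the mitochondrial respiratory chain, had mostly positive fitted differences. Of 29 tested none passed, 28 fitted differences were positive, and 2 had an unadjusted p under 0.05, against 1.34% of all genes that were higher. The median log2 fold change was 0.35, 0.27 without Tmem106b HET replicate 3, 0.10 among Entire libraries, 0.19 with marker sums as covariates and 1.13 per microglia marker count. Uqcrc1, a core subunit of complex III, had 390, 409 and 738 CPM in Tmem106b HET against 347, 336, 382 and 402 CPM in Tmem106b WT (log2 0.38, SE 0.17, edgeR adjusted p = 0.92). Ndufv1 of complex I had 141, 193 and 297 CPM in Tmem106b HET against 135, 117, 138 and 147 CPM in Tmem106b WT (log2 0.49, SE 0.23, edgeR adjusted p = 0.92). The summed list was 4984, 6593 and 12112 CPM in Tmem106b HET against 4768, 4884, 5216 and 4975 CPM in Tmem106b WT. Tmem106b HET replicate 1 lay within the Tmem106b WT range, and the 2 libraries above it were the 2 with the highest neuron marker sums; the part of neuronal transcripts in this was not tested.

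**Figure D4:**
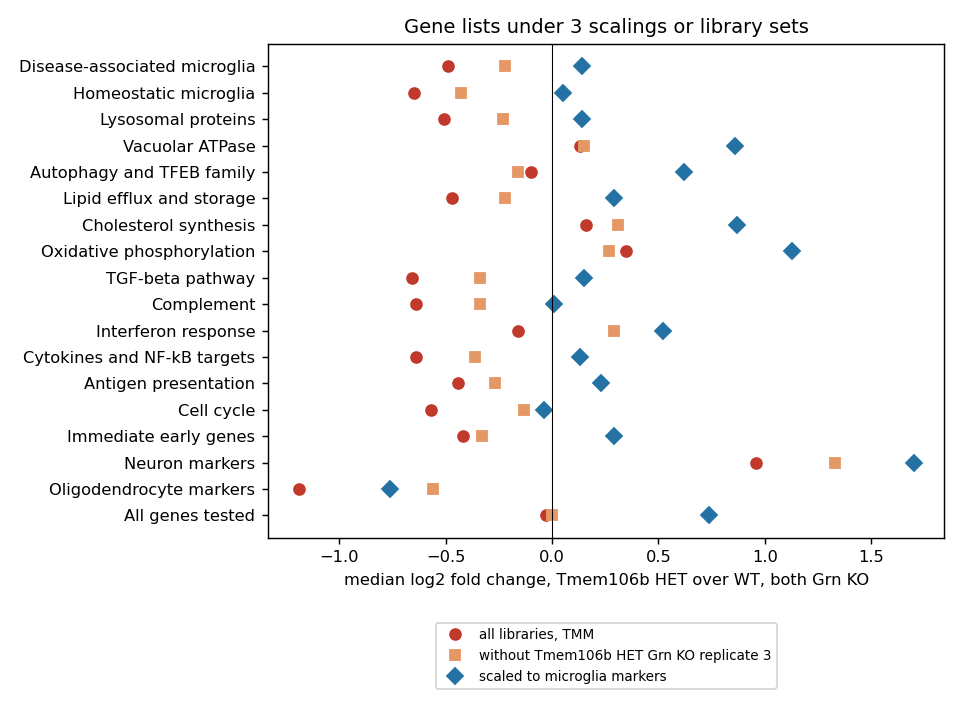
Median log2 fold change of Tmem106b HET over WT, both Grn KO, for 17 gene lists and all genes tested, from all libraries with TMM scaling (circles), without Tmem106b HET replicate 3 (squares) and per microglia marker count (diamonds). Disease-associated genes lie at -0.49, -0.22 and 0.14, and all genes at -0.03, 0.00 and 0.74.

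Complement, inflammatory and antigen presentation genes held 0 passed genes each. Of 18 complement genes 4 had an unadjusted p under 0.05, all lower, against 2.46% of all genes (median log2 -0.64, and 0.01 per microglia marker count). Without Tmem106b HET replicate 3 this held for 0 of the 18, and the median was -0.34. C4b had 19.5, 52.3 and 4.56 CPM in Tmem106b HET against 62.9, 85.6, 41.9 and 50.3 CPM in Tmem106b WT (log2 -1.55, SE 0.57, edgeR adjusted p = 0.92, and -0.68 per microglia marker count). C3, the central complement component, had 16.2, 26 and 4.27 CPM in Tmem106b HET against 37.6, 41.4, 27.3 and 30.1 CPM in Tmem106b WT, with no overlap (log2 -1.20, SE 0.80, and -0.50 per microglia marker count). C1qa, which starts the classical cascade, had 6247, 3881 and 1427 CPM in Tmem106b HET against 5086, 4550, 5777 and 6488 CPM in Tmem106b WT (log2 -0.59, SE 0.34, and 0.08 per microglia marker count). Of 26 cytokine and NF-kB target genes 2 had an unadjusted p under 0.05, the feedback genes Nfkbiz (log2 -0.90, SE 0.38) and Tnfaip3 (-0.86, SE 0.39), both lower also per microglia marker count, at -0.20 and -0.07. Without Tmem106b HET replicate 3 that list had none, and its median was -0.36, beside -0.64 with all libraries and 0.13 per microglia marker count. The antigen presentation list (20 tested, median -0.44) and the interferon list (28 tested, median -0.16) had none, and per microglia marker count their medians were 0.23 and 0.52, below the 0.74 of all genes. Without Tmem106b HET replicate 3 the antigen presentation median was -0.27, whereas the sign of the interferon median turned, to 0.29, with 21 of 28 genes positive. Immediate early genes, which respond to tissue handling, had a median of -0.42 over 25 tested (-0.33 without Tmem106b HET replicate 3 and 0.29 per microglia marker count). Of these 2 had an unadjusted p under 0.05, Jun (log2 -0.55, SE 0.23) and Fosb (-0.98, SE 0.45), both lower, against 2.46% of all genes, and none did without that replicate. Cell cycle genes had a median of -0.57 over 26 tested and none at such a p, with a median of -0.13 without Tmem106b HET replicate 3 and -0.04 per microglia marker count.

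The genes with the smallest p-values did not pass either, each with an adjusted p of 0.92. On the lower side they were led by Arrdc3, an arrestin-related adaptor of receptor traffic, with 42.1, 34.7 and 20.6 CPM in Tmem106b HET against 77.9, 93.9, 62.6 and 63 CPM in Tmem106b WT. Its groups did not overlap (log2 -1.22, SE 0.36, edgeR adjusted p = 0.92, and -0.95 without Tmem106b HET replicate 3 and -0.48 per microglia marker count). Alox5, the lipoxygenase that makes leukotrienes, had 72, 47.2 and 8.2 CPM in Tmem106b HET against 79.4, 64.5, 95.4 and 82.4 CPM in Tmem106b WT (log2 -1.11, SE 0.33, and -0.51 per microglia marker count). Hspa5, the chaperone BiP of the endoplasmic reticulum, had 1730, 1170 and 824 CPM in Tmem106b HET against 1741, 1270, 2664 and 2474 CPM in Tmem106b WT (log2 -0.67, SE 0.22, and 0.03 per microglia marker count). The other lower genes were Katna1, Fcho2, Rgl1, Mdm2, Stk40, Slc1a3, Dhx40, Slain2 and Lifr, from -1.12 for Slc1a3 to -0.55 for Mdm2 and Rgl1. On the higher side Pop7, a subunit of RNase P, had 23.7, 23.1 and 42 CPM in Tmem106b HET against 17.3, 15.7, 17.3 and 20 CPM in Tmem106b WT, with no overlap (log2 0.71, SE 0.22, edgeR adjusted p = 0.92). Snph, the syntaphilin that anchors mitochondria in axons, had 10.9, 65.7 and 135 CPM in Tmem106b HET against 21.9, 15.3, 11.8 and 18 CPM in Tmem106b WT (log2 1.66, SE 0.52), and Syt3, a synaptotagmin, had 21.1, 44.2 and 93.5 CPM in Tmem106b HET against 22.2, 17.6, 18.8 and 26.9 CPM in Tmem106b WT. In both genes the high values were in Tmem106b HET replicates 2 and 3, the libraries with the highest neuron marker sums. The other higher genes were Fam222b, Hnrnpdl, Luzp1, Haghl, Slc25a22, Fam189a1, Strbp, Zfp3 and Arhgef10l.

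Markers of other cells moved with the groups as follows. All 12 neuron markers had positive fitted differences (median log2 0.96, 1.33 without Tmem106b HET replicate 3 and 1.70 per microglia marker count, but 0.12 without Tmem106b HET replicate 2 and 0.50 without Tmem106b WT replicate 2), none of them at an unadjusted p under 0.05. Snap25, of the synaptic release machinery, had 305, 854 and 2773 CPM in Tmem106b HET against 441, 208, 243 and 458 CPM in Tmem106b WT. A list of 13 medial habenula genes, put together by an earlier look at these libraries, summed to 376, 1721 and 1363 CPM in Tmem106b HET Grn KO and 517, 529, 470 and 427 CPM in Tmem106b WT Grn KO; having been chosen on these libraries, it supports nothing further. All 10 endothelial markers had negative differences (median -1.58, -1.61 without Tmem106b HET replicate 3 and -0.89 per microglia marker count), and in 6 of the 10 every Tmem106b HET library lay below every Tmem106b WT library, against 3.18% of all genes. Their sum was 116, 123 and 109 CPM in Tmem106b HET against 256, 148, 250 and 262 CPM in Tmem106b WT, low in all 7. Flt1, a vascular endothelial growth factor receptor, had 33.4, 23.9 and 14.2 CPM in Tmem106b HET against 52.7, 34.4, 56.9 and 59.1 CPM in Tmem106b WT. The 11 oligodendrocyte markers were all lower (median -1.19, and -0.76 per microglia marker count). Without Tmem106b WT replicate 2, a Hemi library, the median was -0.32, and without Tmem106b HET replicate 3 it was -0.56. Their sum was 10898 CPM in Tmem106b WT replicate 2, beside 1805 to 2097 CPM in the other Tmem106b WT libraries. In Tmem106b HET it was 2579, 1546 and 741 CPM. All 11 lay within the Tmem106b WT range in Tmem106b HET replicate 1. In replicates 2 and 3 all 11 lay below it, against 19.3% and 39.1% of all genes. All 10 astrocyte markers had negative differences (median -1.09, -0.58 without Tmem106b HET replicate 3, -0.15 among Entire libraries and -0.40 per microglia marker count), and 3 had an unadjusted p under 0.05, against 2.46% of all genes and none without that replicate. In 3 of the 10 every Tmem106b HET library lay below every Tmem106b WT library, although their sums overlapped, at 401, 549 and 733 CPM in Tmem106b HET against 462, 1297, 614 and 490 CPM in Tmem106b WT. The glutamate transporter Slc1a3, named above among the lower genes, is one of these markers. Of 9 mural markers 8 were lower (median -1.15, -1.15 without Tmem106b HET replicate 3 and -0.29 per microglia marker count), with sums of 130, 119 and 97.1 CPM in Tmem106b HET against 135, 201, 137 and 218 CPM in Tmem106b WT. All 10 border macrophage markers were lower (median -0.59, -0.90 without Tmem106b HET replicate 3 and 0.15 per microglia marker count), and none had an unadjusted p under 0.05. The part of these cells in the results was not tested. Of the marker lists, the neutrophil genes Ly6g, Elane and Mpo and the B cell gene Pax5 stayed under 1 CPM in all 7 libraries.

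Whether the Tmem106b difference was particular to mice without Grn was asked with an interaction term, the Tmem106b HET difference in Grn KO minus that in Grn WT. No gene passed (edgeR, 0% of 21371, lowest adjusted p 0.87), with 917 genes (4.29%) at an unadjusted p under 0.05, of which 1.89% of all genes were higher and 2.41% lower. DESeq2 called 207 (1666 unadjusted) and limma-voom 0 (1238 unadjusted). The 5 genes of smallest p within the limits on level and fold were Nbeal1, Mamdc2, Chrnb4, Tmem158 and Golph3l, each with an adjusted p of 0.87. Golph3l, a Golgi protein, had 30.8, 30.4 and 14.1 CPM in Tmem106b HET Grn KO against 44, 28.9, 40.6 and 30 CPM in Tmem106b WT Grn KO, and with Grn intact 38.9 ± 4.7 CPM in Tmem106b HET against 28.6 ± 9.98 CPM in Tmem106b WT (SD, n = 4 and 3; interaction log2 -1.09, SE 0.33). For Gpnmb the interaction was -1.51 (SE 1.31), for Lgals3 -0.12 (SE 0.54), for Apoe -0.36 (SE 0.60) and for Tmem119 -0.57 (SE 0.48).

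The same terms read as the Grn KO effect within each Tmem106b genotype, from fits that share the Grn KO libraries with the comparison above. Gpnmb differed by 9.51 (SE 1.18) on the log2 scale between Grn KO and WT in Tmem106b HET and by 11.02 (SE 1.43) in Tmem106b WT. Lgals3 differed by 3.96 (SE 0.41) in Tmem106b HET and 4.08 (SE 0.45) in Tmem106b WT, and Apoe by 2.96 (SE 0.44) and 3.32 (SE 0.48). Tmem119 differed by -2.11 (SE 0.37) and -1.54 (SE 0.34), Upk1b by -3.08 (SE 0.39) and -2.55 (SE 0.36), and Atp6v1a by 1.76 (SE 0.29) and 1.57 (SE 0.31). All 6 passed in both genotypes (edgeR, highest adjusted p 0.0027 in Tmem106b HET and 0.044 in Tmem106b WT). They belong to the panel, which was chosen with earlier results of these data known, so their passing supports nothing further. Within Tmem106b HET, 3594 of all 21371 genes were higher and 2772 lower in Grn KO than in Grn WT at an unadjusted edgeR p under 0.05. Within Tmem106b WT these were 1662 and 985. The former compared 3 Grn KO with 4 Grn WT libraries, the latter 4 with 3, and the counts were not tested against each other. By list, the median Grn KO effect was 1.08 in Tmem106b HET and 1.47 in Tmem106b WT for disease-associated genes, -1.72 and -0.86 for homeostatic genes, and 1.11 and 0.40 for oxidative phosphorylation. Over all genes it was -0.02 and 0.10. The counts and medians given for Tmem106b HET all include Tmem106b HET Grn KO replicate 3. Between the Tmem106b genotypes within Grn KO, the homeostatic median was -0.65, but -0.43 without that replicate and 0.05 per microglia marker count. That of oxidative phosphorylation was 0.35, but 0.10 among Entire libraries. The difference between the genotypes passed for no member of these lists.

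**Figure D5:**
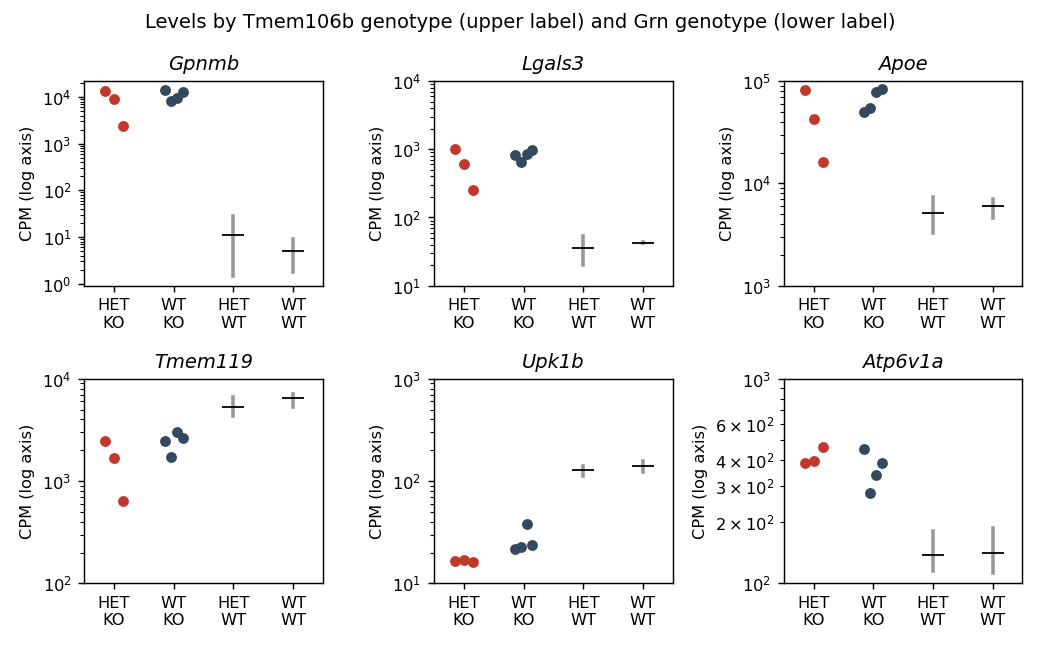
CPM on log axes of 6 panel genes by Tmem106b genotype (upper label) and Grn genotype (lower label), with 1 point per Grn KO library and, for Grn WT groups, the mean as a bar over the range. Gpnmb lies at 2387 to 13189 CPM in Tmem106b HET Grn KO and 8314 to 13934 CPM in Tmem106b WT Grn KO, against means of 11.2 and 4.93 CPM with Grn WT.

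In the other Grn backgrounds, which use other libraries, the Tmem106b HET and WT groups also gave no gene that passed by edgeR. With Grn WT, 745 genes (3.49%) had an unadjusted p under 0.05 (1.95% of all genes higher and 1.53% lower), and with Grn HET 1451 (6.79%; 1.77% higher and 5.02% lower). DESeq2 called 265 and 515 genes there, limma-voom 0 in each. The Tmem106b HET Grn HET libraries were all Entire, whereas Tmem106b WT Grn HET replicates 2 and 5 were Hemi. Summed choroid plexus and ependymal markers were 104 to 198 CPM in Tmem106b HET Grn HET and 261 to 43812 CPM in Tmem106b WT Grn HET. Of these 10 markers 8 were lower at an unadjusted edgeR p under 0.05, against 5.02% of all genes. The part of such transcripts in the Grn HET count was not tested. The median difference of the disease-associated list was -0.13 with Grn WT and -0.06 with Grn HET, and that of the homeostatic list was -0.01 and 0.16. Among 10 tested genes within 2 Mb of Tmem106b none passed in Grn KO. The smallest p-values belonged to Ndufa4 (86.4, 131 and 307 CPM in Tmem106b HET against 70, 86.5, 105 and 92.1 CPM in Tmem106b WT), Tmem168, Foxp2 and Thsd7a.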

How the data were processed

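Each deposited file gives, per the file headers, raw counts of exonic reads per gene and the authors' RPKM values, which were used for no test. The submitters' processing notes name GSNAP and the assembly GRCm38. How reads were counted, whether strand was used and how shared reads were assigned was not given in the sources used here, so overlapping genes and close paralogs may share reads. Of 52636 genes, 52489 matched the GENCODE annotation of that assembly.

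Genes were tested with edgeR 4.0.16 in R 4.3.3: expression filter by group (21371 genes), TMM scaling, a robust quasi-likelihood fit over all 26 libraries with sex and dissection as covariates, two-sided F-tests and Benjamini-Hochberg adjustment over all genes tested, passing at an adjusted p under 0.05. SEs were derived from the F statistic. The script was tested on simulated data. DESeq2 1.42.0 and limma 3.58.1 (voom) were alternatives. Exact permutation tests enumerated all regroupings. List sums are CPM of the plain library total. Scaling to 10 microglia markers and the alternatives for the Grn WT and Grn HET backgrounds were chosen after seeing the data. Reads carry no molecular identifiers, so limits from 0 counts (3 counts per library or over the group) cover counting error only.

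Members and gene lists were chosen with earlier results of these data known. Named genes are both targets and their family, a panel of 39 genes, up to 12 genes per direction by p (at least 5 CPM in the higher group, absolute log2 of at least 0.5, leaving out predicted and Y-linked genes and Xist), 5 interaction genes, list members by p or level, and 4 genes within 2 Mb of Tmem106b. Atp6v1d, Psap, Tgfbr2 and the marker genes under 1 CPM were named after their values were seen. Replicate numbers only name libraries. The 9 replicate pairs within the 2 Grn KO groups differed beyond sampling noise; pairs of other groups were not compared.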

Additional observations from a re-analysis of the deposited data

Results flagged for a closer look

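In the 4 Tmem106b WT Grn KO libraries, 7 of 74 values had 1 library far from the other 3, where chance flags about 1 in 20. The 74 values come from the same 4 libraries and are not independent, so an excess over chance cannot be read from this count. Replicate 2, the Hemi library, accounted for 6 of the 7 flagged values. It had 10898 CPM of summed oligodendrocyte markers, against 1805 to 2097 CPM in the other 3, and 493 CPM of oligodendrocyte precursor markers, against 73.2 to 100 CPM. It was low in summed endothelial markers (148 CPM, against 250 to 262 CPM) and in summed interferon genes (512 CPM, against 646 to 660 CPM). Lamp1 was 2728 CPM in it, against 3621 to 3761 CPM, and Atp6ap1 913 CPM, against 1145 to 1181 CPM. Upk1b was 37.8 CPM in replicate 3, against 21.9 to 23.8 CPM in the other 3. The 3 Tmem106b HET libraries are too few for this check.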

How the results depend on the processing

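The count of genes that passed in Tmem106b HET against WT within Grn KO was 0 in edgeR and limma-voom under every setting tried and 93 in DESeq2. The same held for the interaction except for DESeq2 (207) and the female libraries (1, Cd28), for the Grn WT background except for DESeq2 (265) and the female libraries (1), and for the Grn HET background except for DESeq2 (515) and the female libraries (107). Among female libraries, Tmem106b HET Grn HET and Tmem106b WT Grn WT were each left with only 1 library, replicate 2. The female counts for the interaction and for the Grn WT and Grn HET backgrounds thus rest on 1 library in a group. That library's own spread cannot be measured, so no conclusion is drawn from these counts. Leaving out each of the 7 Grn KO libraries in turn kept the first count and the interaction at 0. The difference in Tmem106b level (Tmem106b HET minus WT) was -18.3 CPM, -8.84 CPM of the plain total and 18.7 counts per 10000 microglia marker counts. It ranged from -23.2 to -9.44 CPM when each library was left out, with -9.44 CPM without Tmem106b WT replicate 1. No paired analysis was possible because the labels carry no replicate numbers.

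Of 67 genes (both targets, their family, the panel and the genes of smallest p), none of which passed, 37 changed sign per microglia marker count and 0 to 6 under any other setting. The log2 fold changes per microglia marker count were, for the targets and family, Grn 1.18, Tmem106b 0.41, Tmem106a 0.28 and Tmem106c 0.36. For disease-associated and lysosomal genes they were Gpnmb 0.11, Lgals3 0.19, Apoe 0.02, Itgax 0.12, Spp1 0.10, Lyz2 0.15, Cd68 0.14, Cd63 0.12, Ctsd 0.12, Ctsb 0.21, Ctsl 0.19, Lamp1 0.14, Trem2 0.19, Tyrobp 0.28, Gpx3 0.09, Pld3 0.29, Fabp5 0.28, Nceh1 0.60, Ms4a7 0.16 and Atp6ap1 0.52. For the rest they were Tmem119 0.03, Selplg 0.05, Upk1b 0.35, Eng 0.06, Crybb1 0.10, Siglece 0.10, Csf1r 0.02, C1qa 0.08, Fcho2 0.03, Rgl1 0.20, Mdm2 0.20, Hspa5 0.03 and Slain2 0.05. Among Entire libraries the sign also turned for Gpnmb (0.19), Gpx3 (0.00), Fabp5 (0.05), Nceh1 (0.27), Mcoln3 (0.15) and Ms4a7 (0.04), and among female libraries for Gpnmb (0.23), Gpx3 (0.15), Fabp5 (0.22), Nceh1 (0.44) and Ms4a7 (0.06). Nceh1 was 0.01 with DESeq2 size factors, in DESeq2 and in the Grn KO libraries alone, and 0.11 with the plain total. Grn was 0.67 in limma-voom and 1.61 with marker sums as covariates, where Atp6v1a was -0.11. Leaving out each library gave ranges of -2.26 to 1.81 for Grn, -0.95 to 0.08 for Gpx3, -0.72 to 0.29 for Fabp5, -0.30 to 0.27 for Nceh1 and -0.16 to 0.29 for Atp6v1a. Per microglia marker count the median of all genes was 0.74, beside -0.03 with TMM. The causes were not tested. Sex and dissection were not balanced: the only Hemi library was male in Tmem106b HET and female in Tmem106b WT, so Hemi libraries of 1 sex could not be compared between the groups.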
